A study of Mus musculus with 24 samples.

Results

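The AFF genes examined here were Aff1, Aff3 and Aff4, measured as ATAC-seq peaks in germinal center (GC) B cells. Consensus peaks were taken where they overlapped the GENCODE body of one of these genes on mm10, extended by 50 kb on each side, which gave 74 peaks of the 65483 in the series, 17 at Aff1, 39 at Aff3 and 18 at Aff4. The loci were chosen by the counts of one intronic Aff3 peak that was more accessible in C mice alone, so the values of that peak in the 4 genotypes are given as a description with no test. For the other Aff3 peaks the contrast of C with WT is described in the same way, and the contrasts of K and CK with WT are tested.

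AFF proteins are scaffolds of the super elongation complex, in which they hold the kinase P-TEFb (CDK9 with a cyclin T partner) together with ELL elongation factors and the histone readers ENL and AF9, and this complex releases paused RNA polymerase II into productive elongation. AFF4 is the common scaffold in most cell types, AFF1 is a frequent fusion partner of MLL in acute leukemia, and AFF3 was first described as a nuclear protein of lymphoid cells. CREBBP is an acetyltransferase and KMT2D a methyltransferase that act at enhancers, and both are often mutated in lymphomas that arise from GC B cells.

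The mice carried Cg1Cre+/- alone (WT, 4 mice), with Crebbp fl/+ (C, 4 mice), with Kmt2d fl/+ (K, 4 mice) or with both floxed alleles (CK, 5 mice), so WT mice expressed Cre as well. The Cre gene sits at the immunoglobulin gamma 1 constant region, so deletion of 1 allele follows B cell activation and is limited to cells that transcribed this locus. Mice were 8 weeks old, and GC B cells were sorted from the spleen 10 days after immunization with sheep red blood cells (SRBC), with 60000 cells and 1 library for each mouse. Each library held between 17483706 and 21857738 fragments in peaks, and the AFF peaks held a median of 86.1 fragments per library. Levels are given as CPM (counts scaled to a common library size) after scaling by edgeR's TMM factors. Values after ± are the SD over the mice of a genotype, with n = 4 in WT, C and K and n = 5 in CK.

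Some measurements bear on every result. The study's text describes female mice, but 9 of the 17 libraries held at least 1421 fragments in peaks in the first 10 Mb of the Y chromosome and the other 8 held at most 1. Libraries with this signal were WT 1 and 2, C 1 and 2, K 1, 3 and 4, and CK 1 and 4, and values within each class are given for the choosing peak, its promoter-side neighbor and both starts that rose in CK. Summed peaks over Crebbp ranged from 41.3 to 52.4 CPM and over Kmt2d from 120 to 136 CPM across all mice. These sums cover the whole gene bodies and not the deleted exons alone, so they cannot decide whether 1 allele was deleted. All 12 GC B cell markers had a promoter peak, and these summed to 801 to 895 CPM among WT mice, 759 to 837 among C mice, 796 to 830 among K mice and 727 to 810 among CK mice. Of the T cell markers Cd3e, Cd3g, Cd4, Cd8a and Trac had none, while Cd3d had a promoter peak of 21 to 32.6 CPM over all mice. The myeloid markers Lyz2, Itgam and Adgre1 had none, and the promoter peak of Csf1r had 0.923 to 2.27 CPM. The promoter peak of Hbb-bt, an erythroid globin gene, had between 18.4 and 21.3 CPM in WT mice, between 7.73 and 11.6 in C mice, between 9.14 and 17.7 in K mice and between 8.64 and 10.4 in CK mice. Promoter peaks of Fcer2a, Ccr7 and Cd38, genes of naive and memory B cells, summed to values from 48.5 to 53.3 CPM in WT mice, 43.8 to 49.5 in C mice, 36.2 to 42.7 in K mice and 38.8 to 42.8 in CK mice. Neither Hba-a1 nor Ighd had a promoter peak. The part of any of these marker lists in the results below was not tested.

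The Aff3 gene lies on the minus strand of chromosome 1 (chr1:38177326-38664955). The choosing peak covered 1113 bp (chr1:38267917-38269029) in an intron, 396.5 kb downstream of the first Aff3 start, and its nearest Aff3 neighbor on the promoter side (chr1:38271451-38272408) began 2421 bp further on. The middle 300 bases of both peaks are shown on the plus strand of GRCm38, with matches to the motifs searched in capitals. Accessibility was counted over whole peaks and not over these bases alone.

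Aff3 choosing peak, chr1:38268323-38268622: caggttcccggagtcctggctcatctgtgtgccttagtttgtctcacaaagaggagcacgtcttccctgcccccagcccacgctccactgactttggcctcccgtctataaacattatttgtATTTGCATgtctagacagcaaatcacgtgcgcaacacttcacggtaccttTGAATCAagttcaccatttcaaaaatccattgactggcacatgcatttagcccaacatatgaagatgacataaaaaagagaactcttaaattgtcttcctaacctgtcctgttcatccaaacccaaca

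Aff3 neighboring peak, chr1:38271779-38272078: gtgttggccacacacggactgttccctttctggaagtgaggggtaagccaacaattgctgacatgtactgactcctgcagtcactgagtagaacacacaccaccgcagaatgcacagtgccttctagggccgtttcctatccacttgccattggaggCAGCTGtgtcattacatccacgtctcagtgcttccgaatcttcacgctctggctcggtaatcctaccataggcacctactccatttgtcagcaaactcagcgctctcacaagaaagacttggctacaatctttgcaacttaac

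The choosing peak held 1 octamer, ATTTGCAT, the motif bound by OCT2 and its partner OCA-B in B cells. It also held 1 match to the AP-1 pattern searched, TGANTCA, where N is any base, with the letters TGAATCA. Over the middle 300 bases of all 65483 peaks, on either strand, 4.17% held the octamer and 8.93% the AP-1 motif. The neighbor held the E-box CAGCTG, which 17.2% of all peaks held, and none of the other motifs searched. These were GAGGAAGT (SPI1 or SPIB, 5.83% of all peaks), TGACGT (CREB, 4.41%), GGGANTTCC (NF-kB, 1.44%), TTCNNNGAA (STAT, 8.23%) and TGTGGT (RUNX, 22.9%). A match describes the letters and not a bound site.

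Aff3 was accessible at 2 peaks over its own starts, which differ in their sequence. The first start is covered by a peak with 48.1% GC (chr1:38664151-38665899), and 37.3 kb further into the gene a peak with 70.0% GC covers an internal start (chr1:38626833-38628453). The middle of the first peak is shown on the plus strand, and for the internal start the RefSeq promoter on GRCm38 is shown on the minus strand, from 250 bases before the start to 50 bases after it.

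Aff3 first start, chr1:38664875-38665174: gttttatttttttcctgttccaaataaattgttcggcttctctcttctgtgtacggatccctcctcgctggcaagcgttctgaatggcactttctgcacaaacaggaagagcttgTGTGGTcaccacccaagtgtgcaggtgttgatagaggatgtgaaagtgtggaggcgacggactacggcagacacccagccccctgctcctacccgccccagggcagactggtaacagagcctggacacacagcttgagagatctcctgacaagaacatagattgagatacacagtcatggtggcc

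Aff3 internal start, chr1:38627195-38627494: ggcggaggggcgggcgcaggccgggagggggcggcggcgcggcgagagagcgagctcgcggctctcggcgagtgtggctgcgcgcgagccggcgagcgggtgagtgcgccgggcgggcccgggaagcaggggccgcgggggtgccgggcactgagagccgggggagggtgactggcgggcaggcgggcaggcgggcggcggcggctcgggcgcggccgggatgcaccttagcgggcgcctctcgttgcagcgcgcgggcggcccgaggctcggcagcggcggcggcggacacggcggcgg

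The sequence at the first start held 8 CpG dinucleotides and 1 RUNX match. The internal promoter held 54 CpG in 300 bases and none of the motifs, where the median RefSeq promoter held 7 CpG. Aff4 has its main start in a peak of 1926 bp with 62.7% GC (chr11:53350227-53352152), and its RefSeq promoter on the plus strand held 44 CpG.

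Aff4 start, chr11:53350517-53350816: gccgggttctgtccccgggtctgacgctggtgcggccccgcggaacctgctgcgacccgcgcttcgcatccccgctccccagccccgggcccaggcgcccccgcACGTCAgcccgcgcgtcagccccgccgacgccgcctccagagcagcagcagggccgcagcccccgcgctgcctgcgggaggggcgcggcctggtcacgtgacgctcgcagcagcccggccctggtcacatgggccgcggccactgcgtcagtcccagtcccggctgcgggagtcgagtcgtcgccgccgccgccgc

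The Aff4 promoter held 1 CREB match, which 7.51% of the 32851 RefSeq promoters held. The 3 promoters shown here, or the peaks over them, return in the comparison of CK with WT.

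The choosing Aff3 peak had 14.1, 13.7, 15.3 and 14.6 CPM in the WT mice, and 22.2, 20.6, 22.2 and 22.6 CPM in the C mice. It had 11.2, 10.7, 12.9 and 10.8 CPM in the K mice, and 12.7, 13.4, 13.3, 13 and 12.7 CPM in the CK mice. Every C mouse lay above every mouse of the other genotypes, every WT mouse lay above every K and CK mouse, and K and CK overlapped. The means ordered as C (21.9 ± 0.873), WT (14.4 ± 0.686), CK (13 ± 0.331) and K (11.4 ± 1.02). On the log2 scale C mice differed from WT by 0.60 (SE 0.074), K mice by -0.34 (SE 0.078) and CK mice by -0.15 (SE 0.073). With the Y chromosome signal the difference of C from WT was 0.62, and without it 0.58. In sorted bulk cells, a peak open in more cells and a peak more open in each cell cannot be told apart.

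The neighbor on the promoter side was a weaker peak with the same order of C and K. The WT mice had 2.08, 1.83, 2.44 and 2.44 CPM and the C mice 3.4, 3.92, 5.56 and 4.73 CPM. The K mice had 1.75, 0.963, 1.26 and 1.06 CPM and the CK mice 1.92, 1.56, 2.37, 2.89 and 2.02 CPM. The C mice were the highest and the K mice were all below the WT mice, while CK overlapped WT. C mice differed from WT by 1.00 (SE 0.18) and K mice by -0.80 (SE 0.22, adjusted p = 0.0336 by the quasi-likelihood test of edgeR, adjusted over all peaks). The CK difference was -0.02 (SE 0.19, edgeR adjusted p = 0.955). Among libraries with the Y chromosome signal the differences of C, K and CK were 0.87, -0.52 and 0.26, and among those without it 1.04, -1.25 and -0.30, so the CK difference changed sign between the classes. Over the 17 libraries Pearson's r of the log2 CPM of these neighboring peaks was 0.89, a description that the differences between genotypes enter.

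The neighbor on the other side, 14722 bp away (chr1:38252693-38253194), averaged 1.84 ± 0.197 CPM for WT, 2.71 ± 0.628 for C, 1.92 ± 0.338 for K and 2.13 ± 0.305 for CK. C overlapped the other genotypes there, since C replicate 2 had 1.89 CPM. Only the choosing peak and its promoter-side neighbor passed an adjusted p of 0.01 for C against WT, 2 of the 39 Aff3 peaks and 2 of all 74 AFF peaks, where 0.160% of all peaks passed. The same 2 were the peaks that passed among 394 peaks within 5000 kb of the choosing peak on either side. The neighbor kept its call in 17 of 28 other fits and lost it when any 1 WT mouse was left out. Since this contrast chose the locus, nothing is read from these counts. Across the 38 other Aff3 peaks the difference of C from WT was positive at 25 and negative at 13, with a median of 0.15, where 49.9% of all peaks were positive.

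**Figure D1:**
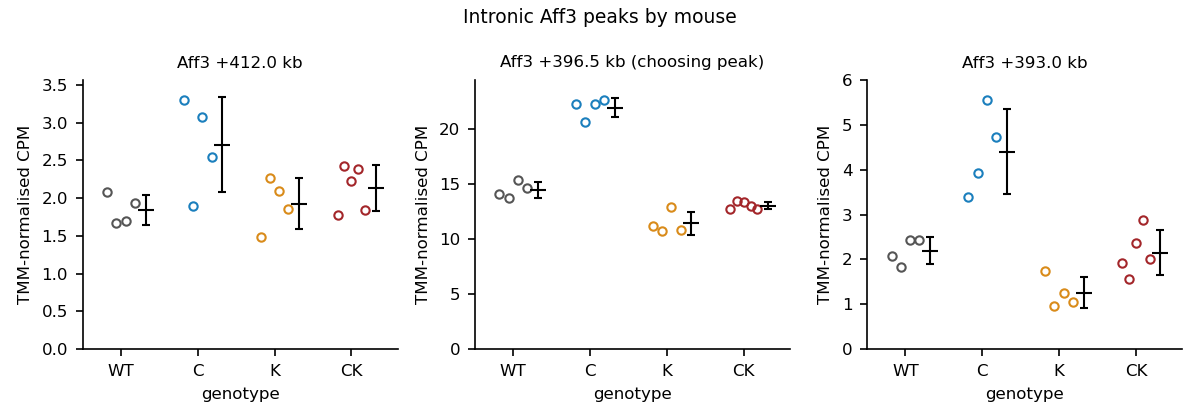
TMM-normalised CPM of the choosing Aff3 peak (middle) and its nearest Aff3 neighbors, by genotype, titled by distance from the first Aff3 start. Open circles are mice, bars are the mean and SD of 4 or 5 mice. The C mice lie between 20.6 and 22.6 CPM at the choosing peak, above the 13.7 to 15.3 CPM of WT.

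The 5 peaks elsewhere in the genome whose log2 CPM followed the choosing peak most closely, among 14173 peaks of similar level more than 1 Mb away, had r between 0.87 and 0.89. The nearest protein-coding starts were those of Mtss1, Ip6k2, Tnrc6b, Cmip and Znrf1. Each had its highest mean in C and its lowest in K, from means of 13 CPM (WT), 14.6 (C), 11.2 (K) and 11.7 (CK) at Mtss1 to 15.4, 18.4, 10.2 and 11.1 CPM at Znrf1. The largest difference of C from WT among them was at Ip6k2, with 11.5 CPM in WT and 15.1 in C, below that of the choosing peak by which they were ranked.

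Compared with WT, none of the 74 AFF peaks passed in K, where 1.48% of all peaks passed. At an unadjusted p of 0.05, 19 AFF peaks were counted, 18 without the choosing peak (20.6% of all peaks). DESeq2 called 2 of the 74, the choosing peak and another (2.47% of all peaks). The call of the choosing peak is not read. The lowest p among the other Aff3 peaks belonged to an intronic peak 67.1 kb into the gene (chr1:38597247-38598553). It had 12.2, 12.8, 12 and 15.3 CPM in WT and 8.49, 8.83, 9.16 and 11.4 CPM in K, so that the groups did not overlap. The fitted difference was -0.46 (SE 0.11, adjusted p = 0.0173 by edgeR), and this was the other peak that DESeq2 called. At Aff1 the lowest p was at an intronic peak 52.4 kb into the gene (chr5:103744400-103745101), with 15.4 ± 1.63 CPM in WT and 11.6 ± 2.12 in K. There K replicate 4 reached 14.2 CPM, within the WT range, and the fitted difference was -0.41 (SE 0.12, edgeR adjusted p = 0.0394). At Aff4 it was the main start, with 48.3 ± 6.0 CPM in WT and 60.9 ± 8.3 in K, a difference of 0.33 (SE 0.086, edgeR adjusted p = 0.0231), which became 0.17 with offsets by the GC content of peaks (edgeR adjusted p = 0.0957).

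In C the lowest p at Aff1 was at its first start, with a difference of 0.11 (SE 0.064, edgeR adjusted p = 0.674). The lowest p at Aff4 in C was at a peak 38.6 kb upstream, with a difference of -0.20 (SE 0.073, edgeR adjusted p = 0.367). No Aff1 or Aff4 peak passed in C with edgeR, and at an unadjusted p of 0.05 there were 0 of 17 at Aff1 and 3 of 18 at Aff4, where 8.90% of all peaks were under it. DESeq2 called 2 of the 74 AFF peaks in C, as many as edgeR, and 0.275% of all peaks.

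In CK mice 9 of the 74 AFF peaks (12.2%) passed against WT, 6 more and 3 less accessible, where 6.84% of all peaks passed. They were 3 of 39 at Aff3, all more accessible, 5 of 18 at Aff4, with 2 more and 3 less accessible, and 1 of 17 at Aff1. Over the 73 peaks other than the choosing peak the differences split into 36 positive and 37 negative, where 50.6% of all peaks were positive. The count fell to 3 without WT replicate 4. The share of all peaks in that fit is not reported here, so the fall is not set against it. Without WT replicates 1, 2 and 3 the share of all peaks was lower, at 6.27%, 5.18% and 4.15%. The peak nearest the threshold inside it was the Aff1 one, at an adjusted p of 0.00993 with edgeR, and the next outside it was a flanking Aff3 peak at 0.0189. That flanking peak was also the outermost one inside the window on the promoter side, with a CK difference of 0.94 from a WT level of 0.661 CPM, and the next peak, 5312 bp beyond the window, differed by 0.24. On the other side the outermost peak was the start of Rev1, a translesion polymerase gene, which differed by 0.12, and the next peak, 4346 bp outside, differed by -0.05.

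**Figure D2:**
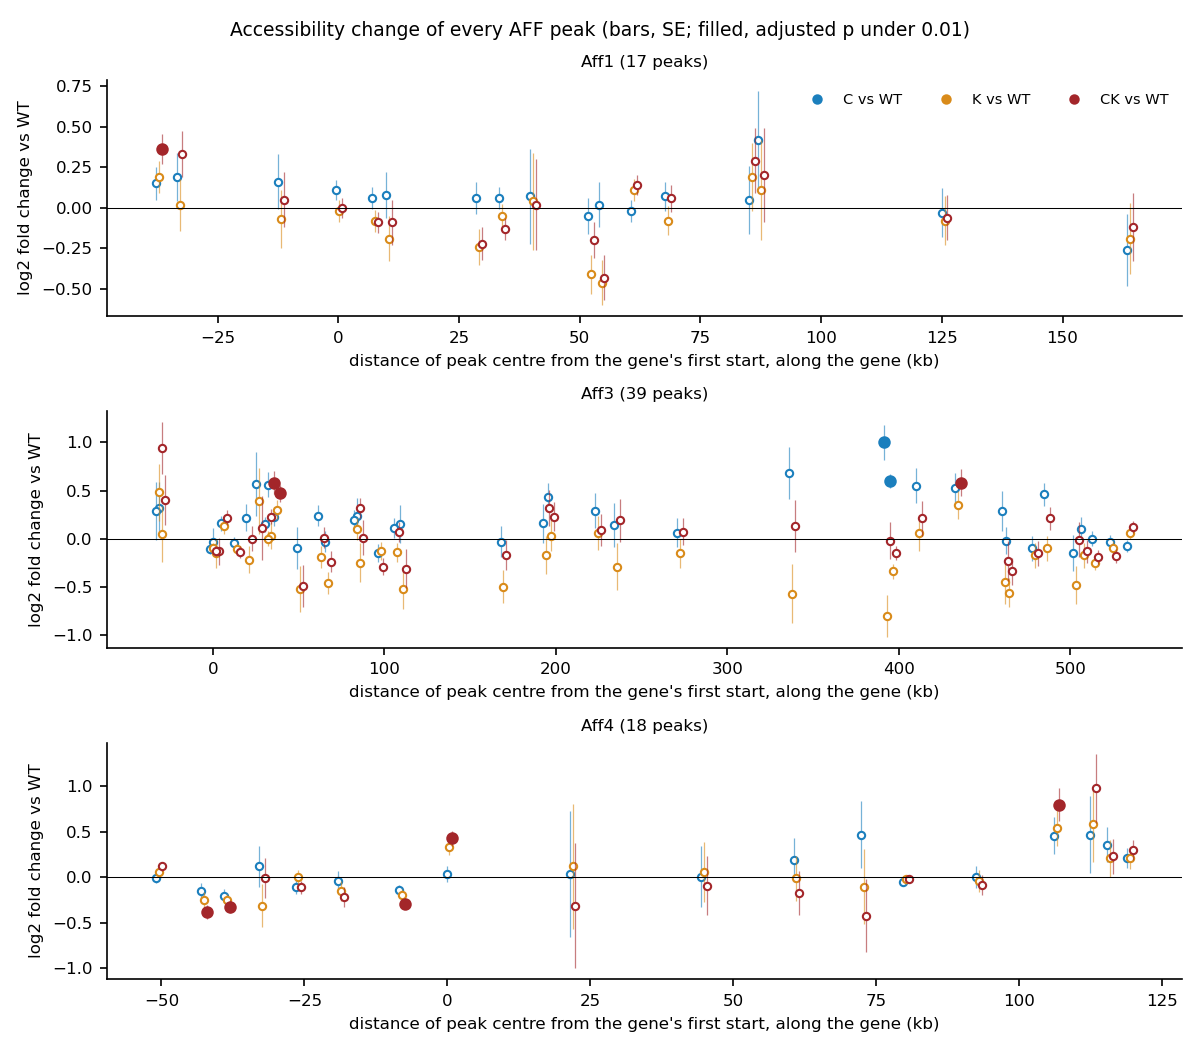
Log2 fold change from WT in C (blue), K (orange) and CK (red) of all 74 AFF peaks against the distance of the peak centre from the first start of its gene in kb, one panel for each gene. Bars are the SE, filled circles passed an adjusted p of 0.01 in edgeR, which is a description in C at Aff3. The 2 filled C peaks lie near 393.0 and 396.5 kb in Aff3, and filled CK peaks flank and cover the Aff4 start.

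At Aff4 the main start rose in CK, and 3 peaks upstream of it fell. The start peak had 52.4, 54.5, 43.9 and 42.5 CPM in the WT mice and 70.8, 55.9, 62.1, 69.8 and 67.8 CPM in the CK mice. All CK mice lay above all WT mice, and the C mice (47.7 to 52.1 CPM) lay within the WT range. The fitted difference from WT was 0.43 (SE 0.082, edgeR adjusted p = 0.000826) in CK, against 0.04 (SE 0.087) in C and 0.33 (SE 0.086) in K. CK was also above C by 0.40 (SE 0.081, edgeR adjusted p = 0.00499), and its difference from K was 0.10 (SE 0.080, edgeR adjusted p = 0.859). The rise in CK was 0.39 among libraries with the Y chromosome signal and 0.51 among those without it. With offsets by GC content of the peaks it was 0.24 (edgeR adjusted p = 0.00491).

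The 3 Aff4 peaks that fell lie upstream of the Aff4 start. The gene Zcchc10 lies between the nearest of them and the other 2, and Hspa4, a heat shock protein gene, lies beyond all 3. The peak 42.6 kb upstream (chr11:53307028-53309378) had 64.1, 70.5, 70.5 and 83.2 CPM in WT and 56.0, 53.2, 46.4, 57.5 and 65.0 CPM in CK. Its groups overlapped, since CK replicate 5 was above WT replicate 1. It fell by 0.38 on the log2 scale (SE 0.082, edgeR adjusted p = 0.00300). The peak 38.6 kb upstream (chr11:53311486-53312955) had 49.3 ± 4.33 CPM in WT and 39.4 ± 3.58 in CK, with no overlap, and fell by 0.32 (SE 0.070, edgeR adjusted p = 0.00253). The peak 7.9 kb upstream (chr11:53342245-53343523) had 33.9 ± 1.35 CPM in WT and 27.8 ± 1.46 in CK, again with no overlap, and fell by 0.29 (SE 0.059, edgeR adjusted p = 0.00184). None of these 3 calls held without WT replicate 4, where the adjusted p was 0.0244, 0.0204 and 0.0108. That mouse was the highest WT mouse at each of them. With the GC offsets the peak 7.9 kb upstream was also lost (edgeR adjusted p = 0.0126).

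In K the same 3 peaks differed from WT by -0.25, -0.25 and -0.19, and in C by -0.15, -0.20 and -0.14, and none of these passed the threshold. A weak peak 106.5 kb downstream of the Aff4 start (chr11:53456754-53457885), at the starts of Gm10447 and Shroom1, rose in CK by 0.80 (SE 0.18, edgeR adjusted p = 0.00442), from 1.43 ± 0.353 CPM to 2.51 ± 0.361. All CK mice there lay above all WT mice, and the call was lost without WT replicate 2 or 4, without CK replicate 1 or 2 and with the GC offsets.

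**Figure D3:**
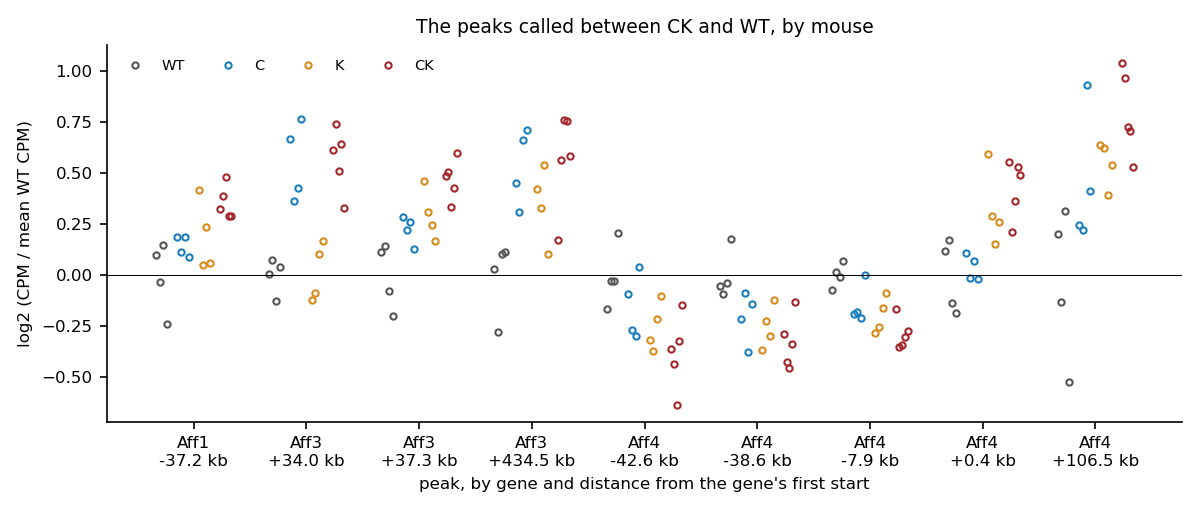
Log2 ratio of the CPM of each mouse to the mean WT CPM at the 9 peaks called between CK and WT, labelled by gene and by distance from the gene's first start in kb. Each open circle is a mouse, colored by genotype. The CK mice lie above the WT mice at the Aff4 start (+0.4 kb) and below them at the peaks 38.6 and 7.9 kb upstream.

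At Aff3 the internal start rose in CK and the first start did not pass. The internal start had 10.2, 10.4, 8.95 and 8.20 CPM in the WT mice, and 13.2, 13.4, 11.9, 12.7 and 14.3 CPM in the CK mice, which did not overlap. The fitted difference was 0.47 (SE 0.090, edgeR adjusted p = 0.000976), with 0.33 and 0.61 in libraries with and without the Y chromosome signal. In K it was 0.30 (SE 0.10, edgeR adjusted p = 0.0652), from 11.6 ± 1.02 CPM, and C mice had 11 ± 0.534 CPM. With offsets by GC content the CK difference was 0.28 and no longer passed (edgeR adjusted p = 0.0196).

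The first Aff3 start had 59.1, 54.5, 51.4 and 60.1 CPM in WT and 52.9, 51.2, 52.5, 50.1 and 51.0 CPM in CK. The groups overlapped, and the difference was -0.13 (SE 0.049, edgeR adjusted p = 0.0862). Within each mouse the log2 ratio of the internal to the first start averaged -2.57 ± 0.207 for WT, -2.23 ± 0.049 for C, -2.16 ± 0.135 for K and -1.97 ± 0.109 for CK. All WT mice lay below all other mice in this ratio. The ratio sets a peak with 70.0% GC against one with 48.1% GC, and it was not formed with the GC offsets. It was formed after the values of both peaks had been seen, so it is a description with no test.

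The remaining Aff3 peaks that rose in CK were intronic. The peak 34.0 kb into the gene (chr1:38630811-38631113), close to the internal start, had 3.14, 3.29, 2.86 and 3.21 CPM in WT and 4.78, 5.22, 4.45, 4.88 and 3.92 CPM in CK. It rose by 0.58 (SE 0.12, edgeR adjusted p = 0.00242), and C mice, with 4.62 ± 0.615 CPM, also lay above WT, while K mice had 3.17 ± 0.310 CPM. That call was lost without WT replicate 3 (adjusted p = 0.0130). The peak 434.5 kb into the gene (chr1:38229862-38231127) rose from 2.66 ± 0.321 CPM to 3.98 ± 0.607, by 0.58 (SE 0.14, edgeR adjusted p = 0.00741), and 19 of 28 other fits kept the call. It was lost when any 1 WT mouse or CK replicate 2, 3, 4 or 5 was left out, and with only the 2 genotypes fitted. All C mice (3.29 to 4.35 CPM) were above all WT mice at that peak too.

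At Aff1 the peak that passed lies at the start of the neighboring gene 1700016H13Rik, 37.2 kb upstream of Aff1 (chr5:103654359-103656062). It rose from 10.5 ± 1.23 CPM in WT to 13.5 ± 0.766 in CK, by 0.36 (SE 0.092, edgeR adjusted p = 0.00993), and 10 of 28 other fits kept the call. It was lost when any 1 WT, C or CK mouse, or K replicate 3, was left out. Aff1 itself has 2 starts with peaks, whose values overlapped between genotypes. The first (chr5:103691460-103693640) had 29.9 ± 1.98 CPM in WT and 29.8 ± 1.36 in CK, a difference smaller than its SE of 0.061. The internal start, 61.2 kb further on (chr5:103752580-103754578), had 57.3 ± 4.72 CPM in WT and 62.9 ± 4.75 in CK, a difference of 0.14 (SE 0.062, edgeR adjusted p = 0.148). The ratio of the internal to the first Aff1 start went from 0.93 ± 0.092 in WT to 1.07 ± 0.162 in CK on the log2 scale, with overlap.

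**Figure D4:**
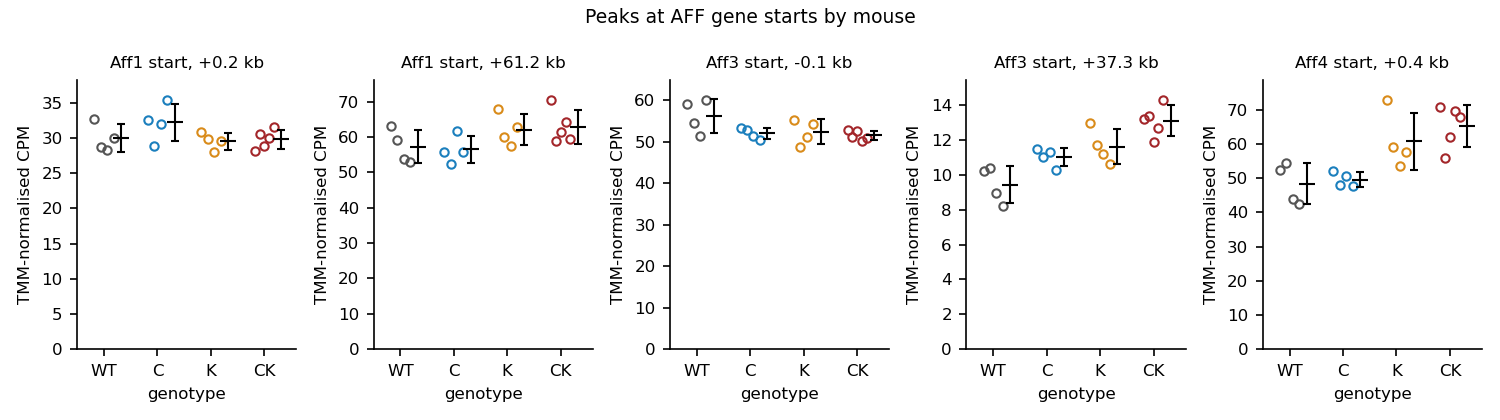
TMM-normalised CPM of the peaks over the starts of Aff1, Aff3 and Aff4 by genotype, titled by distance from the gene's first start. Open circles are mice and bars the mean and SD of 4 or 5 mice. The Aff3 internal start and the Aff4 start are higher in CK than in WT without overlap, and the other starts overlap between CK and WT.

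Per kb of peak length, the most accessible start of each gene in WT had 32.2 CPM per kb (the first Aff3 start), 28.7 (the internal Aff1 start) and 25.1 (the main Aff4 start). The first Aff1 start had 13.7 CPM per kb, and the internal Aff3 start had 5.82, below the choosing peak with 13 per kb. The other 2 peaks over Aff4 starts had 0.661 and 2.12 CPM per kb. Away from gene starts, the peak with the highest CPM in the Aff4 window, not scaled to length, was the one 42.6 kb upstream, with 30.7 CPM per kb in WT (33.5 at the shorter peak 38.6 kb upstream). For Aff3 it was a peak beyond the end of the gene, inside Gm5099 (chr1:38139058-38141371), with 23.5 CPM per kb in WT (29.4 at the shorter peak chr1:38149639-38150997) and a CK difference of -0.18 (SE 0.068, edgeR adjusted p = 0.0673). For Aff1 it was an intronic peak 7.6 kb into the gene (chr5:103698188-103701723), with 8.11 CPM per kb in WT (22 at the shorter peak 52.4 kb into the gene) and a CK difference of -0.09 (SE 0.065, edgeR adjusted p = 0.386).

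Between mutant genotypes, the comparison of CK with C passed at 3 AFF peaks, where 1.68% of all peaks passed. They were the choosing peak and its promoter-side neighbor, which belong to the contrast that chose the locus, and the Aff4 start. K against C passed at the choosing peak and the same neighbor, where 0.788% of all peaks passed. The choice of the locus fixed both comparisons at these peaks, and nothing is read from them. CK against K passed at 0 of 74 with edgeR and with DESeq2, where 0.00916% of all peaks passed, and 13 were under an unadjusted p of 0.05 (7.35% of all peaks). When the C and K differences were added, CK departed from that sum at 0 of 74 peaks with either tool (0.0107% of all peaks passed with edgeR). At an unadjusted p of 0.05 there were 2 (3.73% of all peaks), and 1 without the choosing peak.

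Summing all peaks of a window gives 1 value per locus, weighted to its strongest peaks and including those at the starts of other genes. The Aff4 window held 7 such peaks, the strongest with a mean of 97.8 CPM, and the Aff3 window held the Rev1 start, with 53.0 CPM. The Aff3 sum averaged 435 ± 14 CPM for WT, 454 ± 18 for C, 406 ± 13.9 for K and 427 ± 9.93 for CK. All K mice (390 to 421 CPM) lay below all WT mice (425 to 455), and the difference of -0.10 (SE 0.033) did not pass with edgeR adjustment over the 18058 protein-coding loci (adjusted p = 0.0542), of which 2.71% passed in K. Without the choosing peak it was -0.094 (SE 0.033, edgeR adjusted p = 0.0764). The Aff3 sum in CK differed from WT by -0.029 (SE 0.031, edgeR adjusted p = 0.534), and in C it was higher by 0.060, or 0.037 without the choosing peak.

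The Aff1 sum averaged 222 ± 10.9 CPM for WT, 228 ± 16.5 for C, 215 ± 7.27 for K and 221 ± 5.66 for CK. Its differences from WT were 0.043, -0.043 and -0.003, with edgeR adjusted p of 0.793, 0.547 and 0.961. The Aff4 sum averaged 444 ± 8.94 CPM for WT, 425 ± 11.1 for C, 435 ± 9.69 for K and 433 ± 16.5 for CK. Its differences were -0.061, -0.029 and -0.034, with edgeR adjusted p of 0.523, 0.581 and 0.420. Thus no AFF sum passed in C, K or CK with edgeR or DESeq2, where 0.426% of loci passed in C and 11.6% in CK. The Aff4 sum depended on the window, since its body alone, mostly the start peak, was higher in CK by 0.41 (SE 0.079, edgeR adjusted p = 0.000603), and without peaks near coding starts the window was lower by -0.31 (SE 0.061, edgeR adjusted p = 0.00105).

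**Figure D5:**
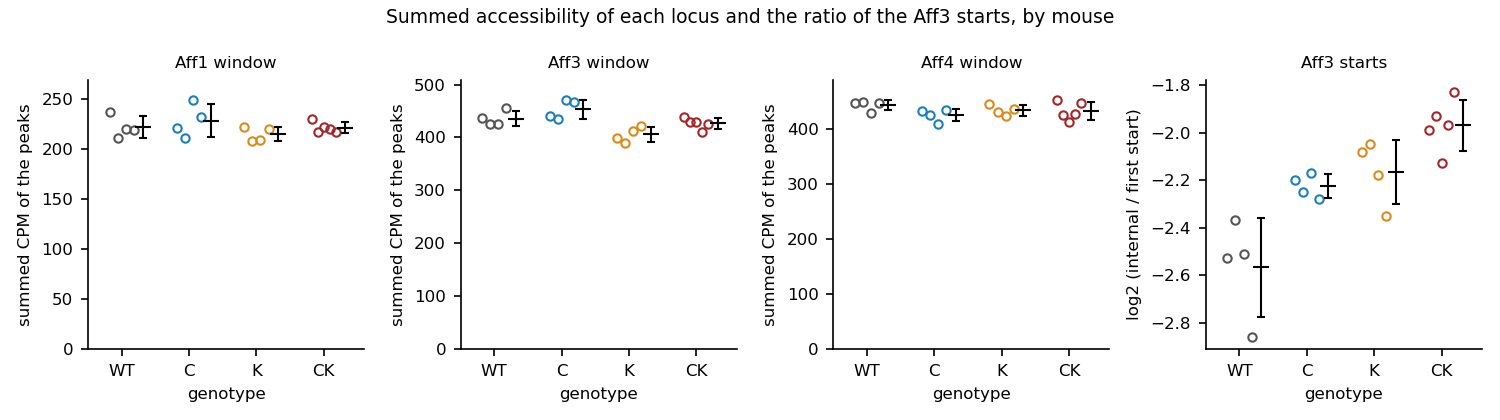
Summed TMM-normalised CPM of the peaks in each AFF window by genotype, and, at the right, the log2 ratio of the internal to the first Aff3 start. Open circles are mice and bars the mean and SD of 4 or 5 mice. The Aff3 sums of the K mice lie between 390 and 421 CPM, below the WT mice, and the ratio of all WT mice is below that of the other genotypes.

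The loci whose sums followed each AFF gene most closely over the 17 libraries, more than 1 Mb away, were Hivep3, Fam163b and Dbh for Aff1 (r between 0.78 and 0.81), Lsamp, B4galt6 and Ttr for Aff3 (0.89 to 0.90) and Tmem241, Mast3 and Tbxa2r for Aff4 (0.89 to 0.91). Fam163b and Dbh are neighbors, as are B4galt6 and Ttr, so their windows share peaks. B4galt6 averaged 35.4 CPM for WT, 36.3 for C, 23.4 for K and 28.4 for CK, with the same order of K, CK, WT and C as Aff3. Since these loci were picked by r over the same libraries, a like order follows from the choice.

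The partners of the AFF proteins did not pass at their promoters. Of the 10 genes of the super elongation complex and P-TEFb (Cdk9, Ccnt1, Ccnt2, Ell, Ell2, Ell3, Eaf1, Eaf2, Mllt1 and Mllt3), 0 passed in C, K or CK at the promoter peak or in the locus sum, with edgeR or DESeq2. With edgeR 0.160%, 1.48% and 6.84% of all peaks passed in C, K and CK, and 0.426%, 2.71% and 11.6% of all loci. At an unadjusted p of 0.05 there were 0, 1 and 2 promoters in C, K and CK, where 8.90%, 20.6% and 28.9% of all peaks were under it. The locus sums under it were 0, 0 and 2, against 9.98%, 26.9% and 36.3% of all loci. The median difference of the promoters in CK was 0.06. Ell2, the elongation factor that B cells use when they turn to antibody secretion, had 106 ± 1.32 CPM at its promoter in WT and 111 ± 8.31 in CK. Eaf2, an ELL partner expressed in GC B cells, had 92.6 ± 4.07 CPM in WT and 99.6 ± 4.28 in CK, a difference of 0.11 (SE 0.040, edgeR adjusted p = 0.0795). Cdk9, the kinase itself, had 120 ± 6.41 CPM in WT and 123 ± 4.58 in CK.

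Of the 4 genes that hold P-TEFb inactive (Hexim1, Hexim2, Larp7 and Mepce), 0 passed in C, K or CK at the promoter peak or in the locus sum, with edgeR or DESeq2. The shares of all peaks and loci that passed were those given for the complex. At an unadjusted p of 0.05 there were 0 promoters in each of the 3 contrasts, against the same shares of all peaks, and 1 locus sum, in K, where 26.9% of all loci were under it. Aff2, the remaining family member, had no promoter peak.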

How the data were processed

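GC B cell libraries from 17 mice were analysed, 4 WT, 4 C, 4 K and 5 CK, with 1 library per mouse. The authors processed reads with the nf-core ATAC-seq pipeline 1.2.1 on mm10 and deposited raw counts of fragments for 65483 consensus peaks, without normalization. Per the file headers, a fragment counted in each peak it overlapped by a fraction of at least 0.2, so neighboring peaks can share fragments. 0 columns were without a sample.

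Genes came from GENCODE M21 on GRCm38. Counts were scaled by TMM in edgeR 4.0.16 (R 4.3.3), peaks under 10 counts in all were to be removed, and the 17 libraries were fitted with 1 coefficient per genotype. Quasi-likelihood tests were adjusted by Benjamini-Hochberg over all peaks, or over 18058 protein-coding loci for sums, and called at an adjusted p of 0.01. The median biological coefficient of variation was 0.0946. Named peaks were the choosing peak and its neighbors, the start and non-start peak of highest mean CPM of each gene, called peaks, or the peak of lowest p where none was called, and the nearest matches by correlation (r over the 17 libraries). A called peak beyond the rule's 4 per gene, at Shroom1, was added after its value was seen, as was the ratio of starts. The rule, members and lists were chosen with earlier results of these data known. Alternatives were DESeq2 1.42.0, other scalings, filters, thresholds and windows, GC bins, the Y chromosome signal, a replicate block and leaving out each mouse. Tests were tried on simulated data. The labels name no shared litter or batch, and same-numbered libraries deviated together (r over 0.1) in 12 of 24 pairs, including all 4 of WT with C, so the numbers were not taken to pair the mice over the 4 genotypes. Same-numbered WT and C libraries also shared their class of Y chromosome signal. Within a class, WT 1, 3 and 4 had r = 0.140, 0.149 and 0.224 with the C library of their own number. With the other C library of the class they had r = 0.112, 0.0587 and 0.0977. WT 2 went the other way, with r = 0.166 with C 1 and 0.158 with C 2. Some genes of the partner and marker lists are not reported here.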

Additional observations from a re-analysis of the deposited data

Results flagged for a closer look

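In 3 of 88 groups examined, a mouse lay apart from the others of its genotype by Dixon's criterion, which chance meets in about 1 of 20 groups. C replicate 2 had 14.5 CPM at the Aff3 intronic peak 67.1 kb into the gene, where the other C mice had 12.2 to 12.3. C replicate 4 had 33.9 CPM at the Aff4 peak 7.9 kb upstream, where the others had 29.3 to 29.9. WT replicate 3 had an Aff4 sum of 430 CPM, where the other WT mice had 447 to 449.

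At 2 starts every C mouse lay on opposite sides of the WT mice in libraries with and without the Y chromosome signal. The log2 difference of C from WT was -0.18 with the signal and 0.14 without it at the internal Aff1 start, and -0.10 and 0.18 at the Aff4 start. Each class held 2 C and 2 WT mice, and this difference was not tested.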

How the results depend on the processing

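Of the 7 counts of called AFF peaks and the 9 locus sums, 470 of 502 values under alternatives kept their direction and their side of the threshold, or stayed within 1.5 times the count. The count in K went from 0 (1.48% of all peaks) to 6 with the replicate block (3.28%), 2 with DESeq2 (2.47%), 7 at an adjusted p of 0.05 (5.38%) and 1 with 100 kb flanks. Those with the replicate block, with DESeq2 and at an adjusted p of 0.05 include the choosing peak, whose calls are not read. The count in CK went from 9 to 4 in gene bodies alone, 15 at an adjusted p of 0.05 (15.4% of all peaks) and 1 with a fold threshold of 1.5. C went from 2 to 1 with at least 30 counts in 4 libraries (0.169% of all peaks tested). CK against C went from 3 to 6 with 100 kb flanks, 5 with the replicate block (3.93%) and 5 at an adjusted p of 0.05 (6.68%), and K against C from 2 to 8 at an adjusted p of 0.05 (3.62%). The share of all peaks with the fold threshold and the number of peaks in the other windows are not reported here. Nothing is read from the counts under those settings. Replicate numbers were not taken to pair the mice (10 of 17 libraries correlated best with their own number, a hint from the data that overlaps the Y chromosome classes). With the block CK gave 13 calls (10.1% of all peaks) and C 2, and the Aff4 start passed in K (adjusted p = 0.00498). The Aff4 sum turned with the window, to 0.040 in C, 0.32 in K and 0.41 in CK for the body alone and to 0.006 in K and 0.007 in CK with 100 kb flanks. In CK it was -0.31 without peaks near coding starts. The cause of these changes was not tested, except that windows hold other peaks by construction.

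Leaving out each mouse gave 1 to 2 calls in C, 0 to 1 in K, 3 to 9 in CK, 2 to 3 in CK against C and 2 to 3 in K against C. The shares of all peaks moved as well, for example to 0.0809% in C, 0.533% in K and 4.15% in CK without WT replicate 3. The lowest count in CK, 3, came without WT replicate 4, where the share of all peaks is not reported here. The C sum of Aff1 ran from -0.004 to 0.085, turning without C replicate 3. Loess and GC offsets were not run for sums. Weak peaks limit precision, with a median of 69.4 fragments per library at intronic Aff3 peaks.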
